A study of Mus musculus with 48 samples.

Results

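Plau, Lair1 and Pdgfb are 3 of the 547 endogenous genes on an immune panel that was read in mouse visceral fat. They were chosen by symbol because their counts were higher on oleate than on palmitate diets, so that difference is described here and not tested. The panel is the NanoString nCounter Mouse Immunology panel, in which a barcoded probe binds each RNA and the barcodes are counted one by one without amplification. It was applied to total RNA of the epididymal white adipose tissue, a fat pad of the male abdomen, from mice of the inbred strain C3H/HeOuJ fed freely for 6 months, with 1 library for each of 48 samples. The control group ate chow (n = 8). The 4 custom diets gave 42% of calories as carbohydrate and 42% as fat, and paired 1 carbohydrate, sucrose or starch, with 1 fatty acid, the saturated palmitate or the monounsaturated oleate. With palmitate, 8 samples were fed sucrose and 7 starch, and with oleate, 9 were fed sucrose and 9 starch. The remaining 7 samples came from mice on a commercial Western diet with the same shares of energy. Chow, the custom diets and the Western diet came from different makers, so fat content and the other ingredients cannot be told apart against chow.

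Plau encodes urokinase, a secreted protease that turns plasminogen into plasmin and so starts the breakdown of fibrin and matrix around migrating cells. Lair1 encodes a receptor on leukocytes that binds collagen and passes an inhibitory signal through phosphatases such as SHP-1, the product of Ptpn6. Pdgfb encodes the B chain of platelet-derived growth factor, which endothelium, platelets and macrophages release and which acts on mural cells and fibroblasts through the receptor encoded by Pdgfrb. In growing fat pads, matrix turnover, leukocyte influx and vessel remodelling go on side by side.

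Of the 3 genes, 1 had an upstream sequence in the RefSeq table used, that of Lair1. It covers the 250 bases before 1 annotated start of the gene, at chr7:4063205-4063454 of GRCm38.p6, minus strand, written 5′ to 3′. Capitals mark the only match found among the motifs searched, the core GAGGAA of ETS factors such as PU.1, read here on the opposite strand and starting 26 bases before the start site.
Lair1: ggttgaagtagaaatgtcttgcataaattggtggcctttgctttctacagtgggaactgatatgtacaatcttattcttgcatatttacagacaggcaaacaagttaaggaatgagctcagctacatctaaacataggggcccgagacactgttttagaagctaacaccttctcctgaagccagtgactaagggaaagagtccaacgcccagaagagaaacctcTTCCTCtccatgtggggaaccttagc
The same core was present on either strand in 23.3% of the 32851 upstream windows of equal length. No match was found in the Lair1 window for AP-1 (TGANTCA, in 6.75% of windows), the GC box (GGGCGG, 32.7%), NF-kappa B (4.11%), the E-box (CACGTG, 6.02%) or the CArG box (1.47%). A match is a description of letters and was not tied to binding in this tissue.

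The sums of the gene probes ran from 396391 to 888687 counts per library, with a median of 635028.5. Negative controls (8 probes) averaged 7.51 counts, with a highest single count of 21, and the lowest unscaled count of the 3 genes was 39, for Lair1 in chow replicate 4. Values below are counts divided by a library factor, the geometric mean of 14 reference genes of the panel, and they may be compared between diets for 1 gene but not between genes, since probes differ in efficiency. The macrophage marker Emr1 was read well above background in every group, as were Cfd, Pparg and Cd36 of adipocytes. The mean level of epithelial markers lay over 3 median absolute deviations above the median in 6 libraries (starch/palmitate 1 and 3, starch/oleate 2 and 6, Western 2 and 6). In bulk tissue, a change in the number of cells of a type and a change in RNA per cell cannot be told apart.

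Plau, the urokinase gene, was lowest on chow, intermediate on palmitate and highest on oleate. The scaled count on chow was 1163 ± 144 (SD, n = 8), with a lowest, median and highest library of 951, 1157 and 1397.5. On sucrose/palmitate it was 1849 ± 429.7 (n = 8; 1268, 1908 and 2397), and on starch/palmitate 2063.5 ± 297 (n = 7; 1662, 2051 and 2415). The ranges of both palmitate groups overlapped, and 13 of the 15 palmitate libraries lay above the highest chow library. On sucrose/oleate Plau was at 2558 ± 341 (n = 9; 2026, 2649.7 and 2993), and on starch/oleate at 2530.3 ± 346 (n = 9; 2058.5, 2417 and 3136). All 18 oleate libraries lay above the highest chow library, whereas only 12 of them lay above the highest palmitate library. The Western diet gave 2322 ± 666 (n = 7; 1329, 2409 and 3121), the widest spread of any group, with Western replicate 2 inside the chow range. In ascending order of mean, the diets ran chow, sucrose/palmitate, starch/palmitate, Western, starch/oleate, sucrose/oleate. Only the step from chow to sucrose/palmitate exceeded the larger SD of its pair, by 1.6 times, and the other steps were 0.0792 to 0.498 of it.

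Lair1, the collagen receptor gene, showed the same order of chow, palmitate and oleate over a wider range. On chow the scaled count was 178 ± 82.7 (n = 8; 46.5, 171.5 and 296). On sucrose/palmitate it was 366 ± 151 (n = 8; 155, 365.5 and 563), and on starch/palmitate 459 ± 158 (n = 7; 226.5, 452 and 659). The palmitate groups therefore began inside the chow range, and 10 of their 15 libraries lay above it. On sucrose/oleate Lair1 stood at 725 ± 139 (n = 9; 500.4, 698 and 914), and on starch/oleate at 762 ± 136 (n = 9; 576, 774 and 983). Every oleate library again exceeded every chow library, and 12 of the 18 exceeded every palmitate library. On the Western diet the count was 621 ± 228 (n = 7; 192, 693 and 874), and 6 of the 7 libraries were above chow. The relative spread was smaller on oleate, with a coefficient of variation of 19.2% and 17.9% with sucrose and starch, than on chow (46.5%), sucrose/palmitate (41.3%) or starch/palmitate (34.3%); the difference in spread was not tested. By mean, chow was followed by sucrose/palmitate, starch/palmitate, Western, sucrose/oleate and starch/oleate. The gap from chow to sucrose/palmitate was 1.24 times the larger SD, and the later gaps were 0.267 to 0.709 of it.

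Pdgfb, the growth factor gene, had another pattern: the palmitate diets sat at the level of chow, and only the oleate and Western diets stood above it. The scaled count was 1015 ± 74.9 on chow (n = 8; 895, 1017 and 1119). It was 1066 ± 161 on sucrose/palmitate (n = 8; 836, 1084 and 1262) and 955 ± 146 on starch/palmitate (n = 7; 784, 930.3 and 1137). Only 4 of 15 palmitate libraries lay above the highest chow library, and starch/palmitate had the lowest mean of all diets. On sucrose/oleate the count was 1379 ± 161 (n = 9; 1135, 1339.5 and 1605), and on starch/oleate 1434 ± 203 (n = 9; 1116, 1438.5 and 1845). All but 1 of the 18 oleate libraries were above chow, and 14 were above every palmitate library. On the Western diet it was 1414 ± 397 (n = 7; 722, 1505 and 1895), so Western replicate 2 fell below every other library of the 6 diets. The order of means was starch/palmitate, chow, sucrose/palmitate, sucrose/oleate, Western, starch/oleate. The step from sucrose/palmitate to sucrose/oleate was 1.94 times the larger SD, and the remaining steps were 0.0501 to 0.405 of it.

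**Figure D1:**
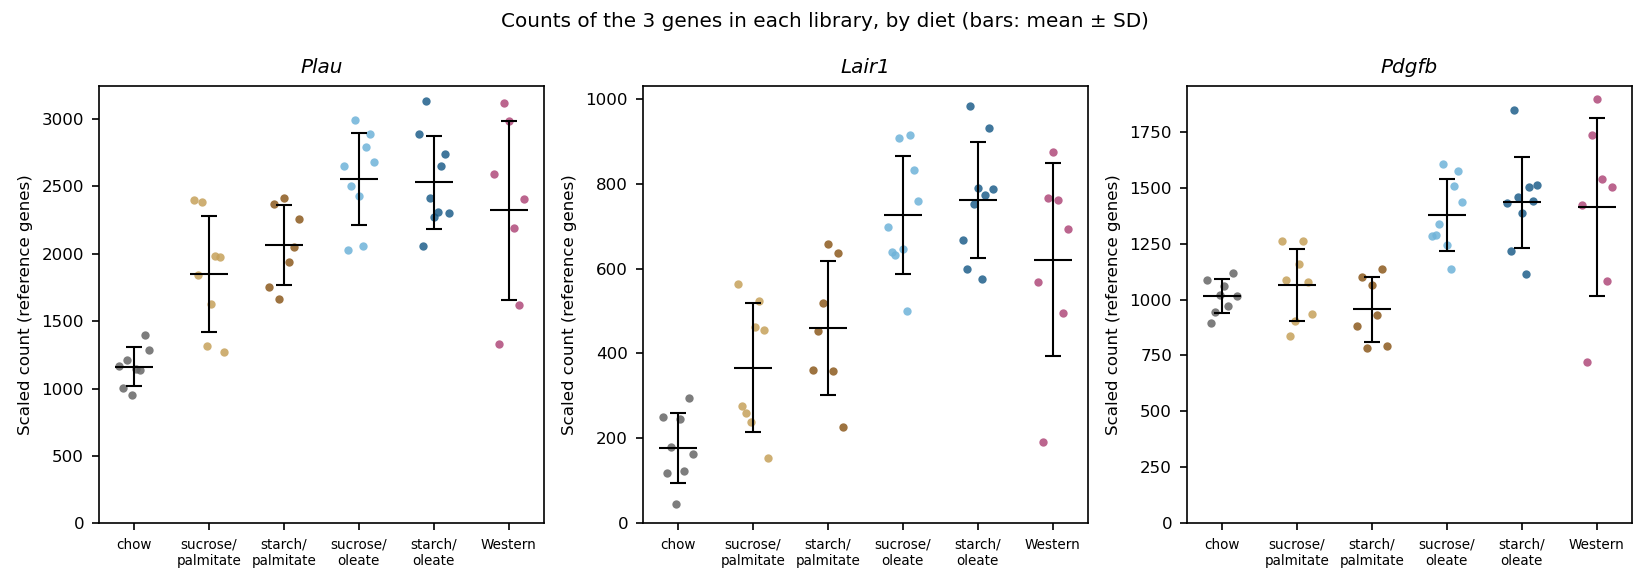
Scaled count of Plau, Lair1 and Pdgfb (vertical axes, from 0) in each of the 48 libraries, by diet; each point is 1 library and the bars are mean ± SD of 7 to 9 libraries. The means of Plau and Lair1 are lowest on chow and highest on oleate, while the palmitate points of Pdgfb (784 to 1262) sit around those of chow (895 to 1119).

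Some fat pads stood at the end of their group for all 3 genes. In 3 of the 6 groups 1 library was the highest for each of them, and in 1 group the lowest. Chow replicate 7, sucrose/palmitate replicate 1 and starch/oleate replicate 3 were these highest libraries. Western replicate 2, one of the 6 fat pads with epithelial RNA, was the lowest of its group for all 3. None of the 18 combinations of gene and diet had a library far enough from the others to pass Dixon's 95% limit.

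The difference between oleate and palmitate, which chose the genes, was read per carbohydrate and over both. With sucrose, the fitted log2 difference of oleate minus palmitate was 0.47 ± 0.132 for Plau (SE; 1.38-fold), 0.99 ± 0.26 for Lair1 (1.98-fold) and 0.37 ± 0.118 for Pdgfb (1.29-fold). With starch it was 0.29 ± 0.137 for Plau (1.23-fold), 0.73 ± 0.27 for Lair1 (1.66-fold) and 0.59 ± 0.124 for Pdgfb (1.5-fold). Plau and Lair1 thus had the larger value with sucrose and Pdgfb with starch, an ordering taken up by the interaction below. Over both carbohydrates the difference was 0.38 ± 0.0949 for Plau, 0.86 ± 0.188 for Lair1 and 0.48 ± 0.0856 for Pdgfb, against a median of 0.05 over the 491 genes tested. Lair1 ranked 7 from the top of these genes, Pdgfb 60 and Plau 88. With palmitate below and oleate above, 9, 10 and 11 of 15 palmitate libraries lay under the lowest oleate library for Plau, Lair1 and Pdgfb. Of the 491 genes, 0 had every oleate library above every palmitate library, and 0 had every palmitate library above every oleate library.

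Macrophage markers moved with this difference. Of 17 listed macrophage markers, 15 were on the panel and above background in every group, and 9 were higher and 0 lower on oleate; across all genes tested 23.6% were higher and 10.8% lower. The summed scaled count of the list ran from 30810 to 81990 on the palmitate diets (medians 48180 with sucrose and 48800 with starch) and from 50060 to 81260 on the oleate diets (medians 55420 and 66340). With the list's mean level as a covariate, the oleate difference was 0.23 ± 0.0809 for Plau, 0.47 ± 0.0764 for Lair1 and 0.33 ± 0.0659 for Pdgfb, so the values of Plau and Lair1 shrank by over 1.5 times. The endothelium list split, with 2 of 6 markers higher and 3 lower on oleate, a median of -0.02, and summed counts of 2475 to 5017 on palmitate and 2030 to 6114 on oleate. Of 3 platelet markers, 0 passed in either direction, and their sums were 40.2 to 77.1 on palmitate and 34.2 to 450 on oleate. They lay near background, with group means of 7.92 to 13.5 for Gp1bb and 15.2 to 24.3 for Itga2b, so this count cannot speak for platelets. In Ppbp the highest sucrose/oleate library was at 381, against a median of 26.3 in that group. Of 6 fibroblast and mural markers, 1 was higher and 0 lower, with sums of 13050 to 23270 on palmitate and 15610 to 21750 on oleate. Of 4 tested neutrophil markers, 3 were higher and 0 lower (S100a9 at 1.75 ± 0.553, Cxcr2 at 1.14 ± 0.424, Csf3r at 0.47 ± 0.188). Summed counts of the 5 on the panel were 488 to 1742 on palmitate and 333 to 5243 on oleate. With sucrose and starch, the medians of the sum were 794 and 776 on palmitate and 564 and 917 on oleate. Those of S100a9 were 58.8 and 59.7 on palmitate and 77.1 and 52.5 on oleate, where its highest libraries reached 2051 and 1456. The medians of Cxcr2 were 20.9 and 23.3 on palmitate and 21.8 and 25.4 on oleate. Of 3 adipocyte markers, 0 were higher and 2 lower (Cfd at -1.66 ± 0.311, Pparg at -0.52 ± 0.107), with sums of 59220 to 141100 on palmitate and 53010 to 105100 on oleate. Of 7 tested B cell markers 2 were higher, and of 10 T cell markers 0 passed. Some of the T cell markers lay near background, such as Cd8a (group means of 7.20 to 17.05) and Cd6 (9.90 to 19.5). The positive control ratio, a property of the assay, was 2.92 to 3.56 on palmitate and 2.92 to 3.28 on oleate. With it as a covariate the oleate differences were 0.38, 0.83 and 0.47. Single diets were less alike in this ratio: its highest sucrose/oleate library (3.07) lay under the lowest library of starch/oleate (3.11). Every chow library (lowest 3.17) exceeded all those of sucrose/oleate and of starch/palmitate (highest 3.16). The ranges of sucrose/palmitate and starch/oleate did overlap that of chow. With the ratio as a covariate, the genes called went from 238 to 123 on the custom diets against chow and from 200 to 202 on the Western diet. Between sucrose and starch they went from 74 to 60 with oleate and from 10 to 1 with palmitate. In the interaction of carbohydrate and fat they went from 27 to 0. The cause of these changes was not tested. The part of these cell types in the differences was not tested.

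Sucrose and starch were compared to ask whether the carbohydrate of the diet mattered for the 3 genes, a contrast that the choice of genes did not use. Neither Plau, Lair1 nor Pdgfb passed the test in edgeR (adjusted over 491 genes). Sucrose minus starch over the 4 custom diets was -0.07 ± 0.0943 for Plau (95% interval -0.26 to 0.12, adjusted p = 0.685) and -0.20 ± 0.185 for Lair1 (-0.57 to 0.17, adjusted p = 0.547). For Pdgfb it was 0.05 ± 0.085 (-0.12 to 0.22, adjusted p = 0.759). These intervals span values on both sides of 0, so equal levels on sucrose and starch were not shown either. Beside this count of 0, 9.98% of all genes passed, 20 higher and 29 lower on sucrose; with TMM scaling, which takes the scale from the bulk of the genes, the split was 30 and 21.

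Within each fat, the 3 genes did not pass either, and their lowest unadjusted p over the comparisons of carbohydrates and the interaction was 0.215. Among oleate diets, sucrose minus starch was 0.02 ± 0.127 for Plau (-0.24 to 0.27), -0.07 ± 0.248 for Lair1 (-0.57 to 0.43) and -0.06 ± 0.114 for Pdgfb (-0.29 to 0.17), with adjusted p of 0.951, 0.87 and 0.778 in edgeR. In that comparison 15.1% of genes passed, 25 higher and 49 lower on sucrose (43 and 35 with TMM scaling), and the 3 genes were among those that did not. Among palmitate diets, the values were -0.16 ± 0.139 for Plau (-0.44 to 0.12), -0.33 ± 0.273 for Lair1 (-0.88 to 0.22) and 0.16 ± 0.126 for Pdgfb (-0.10 to 0.41), with adjusted p of 0.779, 0.752 and 0.748; here 2.04% of genes passed. The interaction, which asks whether the step from starch to sucrose differed between the fats, was 0.17 ± 0.189 for Plau (-0.21 to 0.55), 0.25 ± 0.369 for Lair1 (-0.49 to 1.00) and -0.21 ± 0.17 for Pdgfb (-0.56 to 0.13). Their adjusted p in edgeR were 0.66, 0.774 and 0.522, beside 5.5% of genes that passed (7 higher and 20 lower; 16 and 17 with TMM scaling). With the macrophage level as a covariate, Lair1 passed in the interaction at 0.68 (adjusted p = 0.00298) and among oleate diets at 0.44 (adjusted p = 0.00224). In that last comparison 2 of 15 macrophage markers were lower and 0 higher on sucrose, while their sums overlapped (50060 to 68950 with sucrose, 51190 to 81260 with starch).

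Plau and Lair1 were higher than chow on the fat-rich diets, and Pdgfb was higher by the smallest fold of the 3. These tests were known when the genes were picked and share libraries with the choice, so they are no independent support. In the mean of the 4 custom diets, Plau rose by 0.94 ± 0.114 on the log2 scale (1.92-fold, edgeR adjusted p = 1.97e-08), and all 33 libraries were above the chow mean. Lair1 rose by 1.63 ± 0.235 (3.1-fold, adjusted p = 7.67e-07), with 32 of 33 libraries above the chow mean. Pdgfb rose by 0.23 ± 0.0974 (1.17-fold, adjusted p = 0.0452), with 26 of 33 libraries above. All 3 were called higher, as were 39.5% of all genes tested, and the median gene was itself 0.25 higher. Relative to that median, Pdgfb was at -0.02 and was not above the panel. The call of Pdgfb was lost under 5 of 11 alternatives and with 20 of 41 single libraries left out. With TMM scaling its difference was 0.06 (adjusted p = 0.581), while the split of calls over all genes moved from 194 higher and 44 lower to 126 and 89.

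Split by diet, and as description only, Lair1 differed from chow by 1.04 on sucrose/palmitate, 1.37 on starch/palmitate, 2.02 on sucrose/oleate and 2.10 on starch/oleate (log2). The same values for Plau were 0.67, 0.83, 1.14 and 1.12. For Pdgfb they were 0.07, -0.09, 0.44 and 0.50, so its mean over the custom diets joined diets at the chow level with diets above it. These 4 comparisons share the chow libraries. Every oleate library exceeded every chow library for Plau and Lair1, and for 5.09% of the genes tested. The genes were chosen for higher counts on oleate, so this share beside them is description only.

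On the Western diet, Plau rose by 1.00 ± 0.14 over chow (2-fold, edgeR adjusted p = 6.69e-07), and 6 of 7 libraries exceeded the highest chow library. Lair1 rose by 1.80 ± 0.279 (3.49-fold, adjusted p = 3.59e-06), again with 6 of 7 libraries above every chow library. Pdgfb rose by 0.48 ± 0.125 (1.39-fold, adjusted p = 0.00227), with 5 of 7 libraries above. All 3 were called higher here as well, beside 32.8% of all genes (161 higher and 39 lower; 116 and 55 with TMM scaling), and the median gene was 0.25 higher. Western replicate 2 was the library nearest to or below chow in each case. Without the 6 fat pads with epithelial RNA, a choice made after the data were seen, all 3 calls remained. With the macrophage level as a covariate, Pdgfb no longer passed (0.21, adjusted p = 0.0981), and on the custom diets it was at -0.04 (adjusted p = 0.788). The macrophage list had 11 markers higher and 1 lower of 15 on the custom diets, and 10 higher and 2 lower on the Western diet. Its sums were 16750 to 48570 on chow, 30810 to 81990 on the custom diets and 20710 to 83710 on the Western diet. The 3 adipocyte markers were all lower in both comparisons (Cfd at -2.41 ± 0.305 and -3.38 ± 0.51), with sums of 83970 to 303900 on chow, 53010 to 141100 on the custom diets and 23950 to 65500 on the Western diet. Of 7 tested B cell markers, 6 were higher and 0 lower in each, with sums of 373 to 1589 on chow, 1085 to 3100 on the custom diets and 957 to 3458 on the Western diet. Of 10 T cell markers, 7 were higher on the custom diets and 3 on the Western diet. The part of these cells in the differences was not tested.

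**Figure D2:**
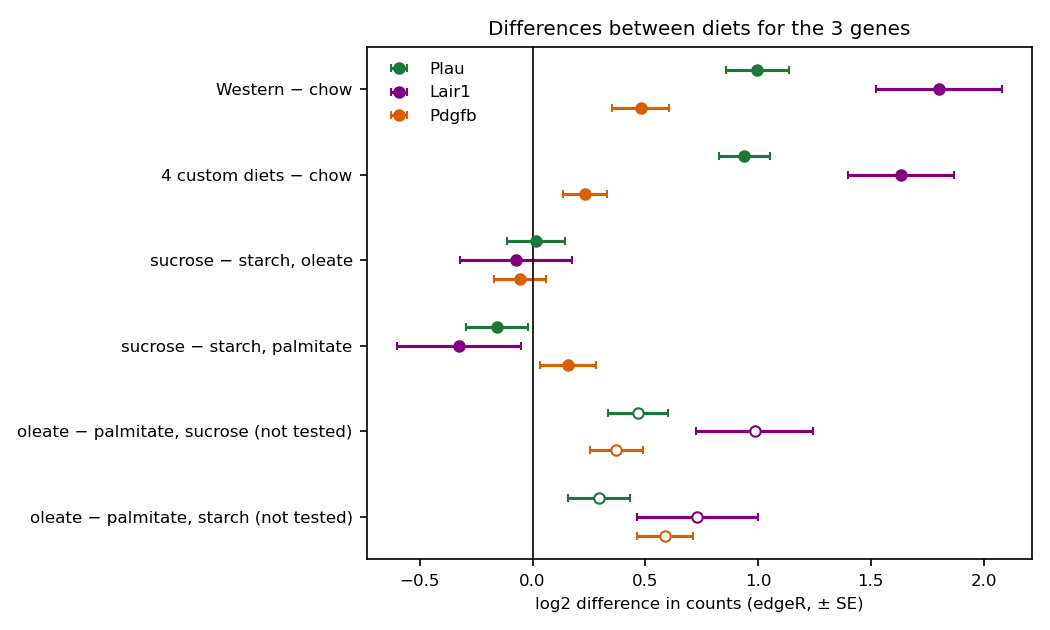
Fitted log2 difference between diets (horizontal axis) for Plau, Lair1 and Pdgfb, with bars of ± SE from edgeR; open points are the oleate minus palmitate values that chose the genes and were not tested. The sucrose minus starch points lie between -0.33 and 0.16, and those against chow between 0.23 and 1.80.

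The 3 genes also varied together among libraries of the same diet. Each library's log2 scaled count was taken as its deviation from the mean of its diet, which removes the differences between diets, and 12 relations were tested by 100000 permutations within diets. Lair1 and Pdgfb had a Pearson r of 0.714 (n = 48, permutation p = 1e-05, adjusted p = 2.4e-05) and a Spearman rho of 0.789 (adjusted p = 4e-05). Plau and Pdgfb had 0.721 (permutation p = 3e-05, adjusted p = 6e-05) and 0.657, and Plau and Lair1 0.632 (permutation p = 1e-05, adjusted p = 2.4e-05) and 0.564. The value 1e-05 is the smallest these permutations can give. Without the 2 libraries farthest from the median of the first gene, r was 0.752, 0.626 and 0.478 for the same pairs. All counts of a library share 1 scaling factor; with TMM scaling r was 0.544, 0.625 and 0.456, so the pairs with Lair1 were weaker. Within single diets, Lair1 and Pdgfb ranged from 0.464 on chow to 0.973 on the Western diet. Plau and Lair1 ranged from 0.0412 on starch/palmitate to 0.873 on sucrose/oleate, and Plau and Pdgfb from 0.334 on sucrose/palmitate to 0.949 on the Western diet, each over 7 to 9 libraries.

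Lair1 followed the macrophage list most closely. The mean log2 level of the 15 macrophage markers had r = 0.938 with Lair1 (rho 0.898, permutation p = 1e-05, adjusted p = 2.4e-05), 0.898 without the 2 farthest libraries and 0.923 with TMM scaling. Within diets it was 0.94 to 0.988 on chow, both palmitate diets and the Western diet, and 0.582 and 0.726 on sucrose/oleate and starch/oleate. For Pdgfb the value was 0.725 (rho 0.719, adjusted p = 2.4e-05 by permutation), and for Plau 0.635 (rho 0.534, adjusted p = 2.4e-05). With TMM scaling they were 0.523 and 0.431. Within single diets, Pdgfb ranged from 0.483 on chow to 0.962 on the Western diet. Plau ranged from 0.204 on starch/palmitate and 0.24 on sucrose/oleate to 0.845 on the Western diet. For the endothelium list, which holds the cells best known for Pdgfb, r was 0.103 with Pdgfb (permutation p = 0.481, adjusted p = 0.641), 0.0251 with Plau (permutation p = 0.868, adjusted p = 0.886) and -0.0563 with Lair1 (permutation p = 0.708, adjusted p = 0.849). With TMM scaling these were -0.0791, -0.127 and -0.355, and that of Lair1 passed (adjusted p = 0.0179 by permutation). The list includes Sele, whose group means of 8.81 to 16.6 were near background. Single diets differed in sign, with the Western diet highest for each gene. The endothelium r ran from -0.518 (sucrose/palmitate) to 0.857 for Pdgfb and from -0.691 (sucrose/oleate) to 0.813 for Plau. For Lair1 it ran from -0.469 (sucrose/palmitate) to 0.888. The 3 adipocyte markers had r = -0.387 with Lair1 (rho -0.385, permutation p = 0.025, adjusted p = 0.0429). With Plau, Pearson r was -0.292 and missed the threshold (permutation p = 0.0577, adjusted p = 0.0866), while Spearman rho was -0.402 and passed it (permutation p = 0.00755, adjusted p = 0.0129). With Pdgfb, r was -0.0215 (permutation p = 0.886) and rho -0.196 (permutation p = 0.19, adjusted p = 0.254). Without chow replicate 4 and Western replicate 2, these adipocyte values were -0.531, -0.516 and -0.355, all with an adjusted p under the threshold (0.00135, 0.00078 and 0.0191 by permutation). The relation of Pdgfb passed only without those fat pads, and so did the Pearson r of Plau. Within single diets the adipocyte r was highest on the Western diet for each gene. It ran from -0.967 (chow) to 0.783 for Lair1, -0.9 (chow) to 0.605 for Plau and -0.675 (sucrose/oleate) to 0.696 for Pdgfb.

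**Figure D3:**
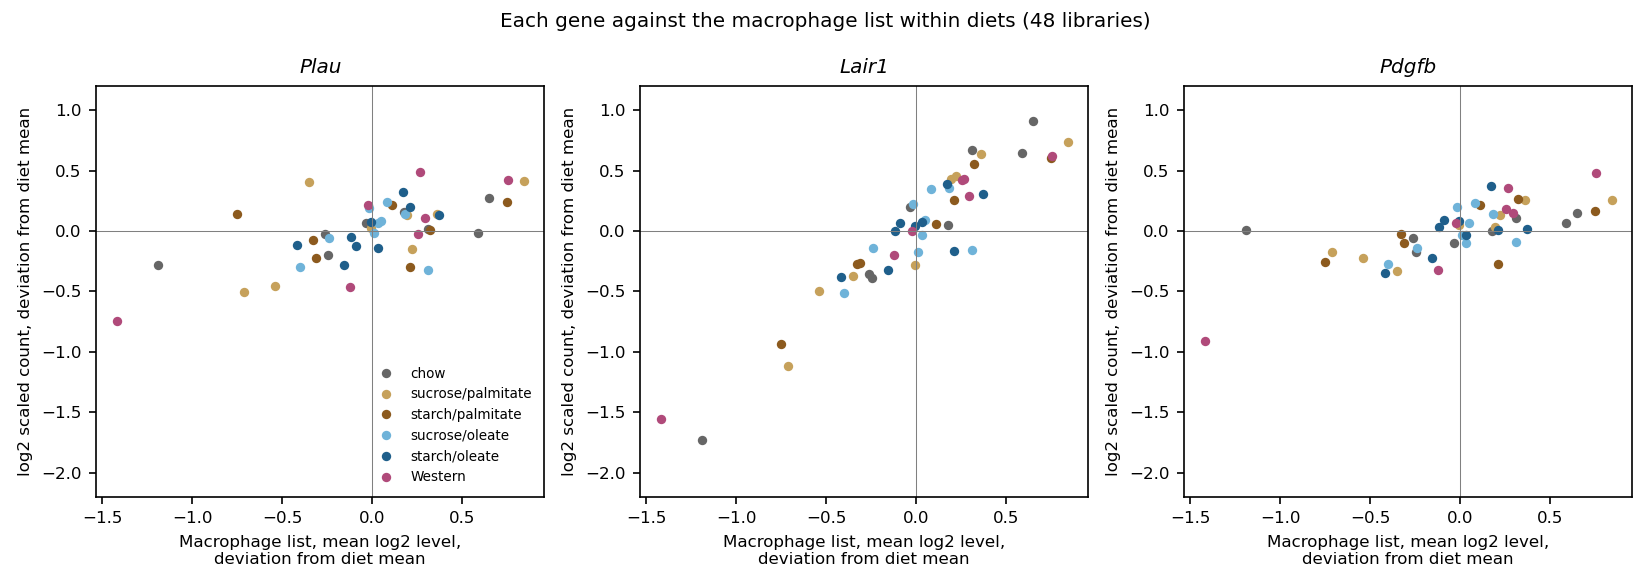
Deviation of the log2 scaled count of each gene from its diet mean (vertical axis) against the deviation of the mean log2 level of the 15 macrophage markers (horizontal axis) in 48 libraries, coloured by diet. The points of Lair1 lie close to a line (r = 0.938), and those of Plau (0.635) and Pdgfb (0.725) scatter more, with Western replicate 2 at the lower left of each panel.

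The genes with the most similar pattern were ranked among the 403 other genes whose mean count reached 30, with Plau, Lair1 and Pdgfb themselves left out. Over the 48 libraries, those nearest to Lair1 were Ptpn6 (Pearson r = 0.96), the phosphatase of its signalling, then Ly86 (0.958), Slamf7 (0.955), Ptprc (0.954), the pan-leukocyte CD45 gene, and Itga4 (0.949). After removal of diet means they were Tyrobp (0.965), Ptprc (0.959), Ctss (0.957), Trem2 (0.957) and Irf5 (0.95). All of these are genes of leukocytes or myeloid cells. Among these genes, Plau was nearest to Tgfbr1 (0.886), a transforming growth factor beta receptor, Tnfrsf11a (0.885), the RANK receptor, Gpr183 (0.879), Tlr1 (0.849) and Cd9 (0.844). Within diets its nearest were Gpr183 (0.749), Tnfrsf11a (0.724), Arhgdib (0.714), Pdgfrb (0.703) and Tgfb1 (0.702). Pdgfb was nearest to Fyn (0.863), Ifnar1 (0.861), Il10rb (0.855), Crlf2 (0.854) and Tnfsf12 (0.848), and within diets to Il10rb (0.836), Itga5 (0.835), Csf1r (0.831), Casp1 (0.824) and Fyn (0.815). The median r of a gene was 0.279 with Plau, 0.317 with Lair1 and 0.253 with Pdgfb, so the background of this measure was above 0. Had the members been ranked too, Lair1 would have stood at rank 3 for Plau over the 48 libraries (r = 0.88), and Pdgfb at rank 3 for Plau within diets (r = 0.721). By the other measure each was farther from Plau, Pdgfb at rank 71 over the libraries and Lair1 at 46 within diets. For Pdgfb, Plau stood at ranks 62 and 45 by the same measures, and Lair1 at 51 and 50. Neither Plau nor Pdgfb came near the top for Lair1, at ranks 41 and 91 over the libraries and 99 and 79 within diets.

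The partners of Plau on the panel were few. Of 16 listed genes of the urokinase and plasminogen system, 4 were measured: the urokinase receptor gene Plaur, vitronectin (Vtn) and the integrin chains Itga5 and Itgam. On oleate against palmitate, 2 of the 4 were higher and 0 lower, beside the 34.4% of all genes that passed in either direction. These were Itgam at 0.57 ± 0.158 (edgeR adjusted p = 0.00463) and Itga5 at 0.37 ± 0.13 (adjusted p = 0.0234), and Itgam is also a macrophage marker. Plaur was at 0.35 ± 0.146 and missed the threshold (adjusted p = 0.0578), and Vtn was at -0.28 ± 0.177 (adjusted p = 0.22). Against chow the receptor gene did not pass: Plaur was at -0.09 ± 0.162 on the custom diets (adjusted p = 0.676) and -0.43 ± 0.216 on the Western diet (adjusted p = 0.106), while Plau rose in both; the difference between the genes was not tested. Vtn fell by 0.94 ± 0.185 on the custom diets (adjusted p = 8.59e-05), but by 0.53 without chow replicate 1 (adjusted p = 0.00588). Itga5 rose by 0.55 ± 0.152 there (adjusted p = 0.00289) and by 0.74 ± 0.192 on the Western diet (adjusted p = 0.00212), calls that ended with the macrophage covariate, as did that on oleate (adjusted p = 0.493, 0.115 and 0.412). Between sucrose and starch with oleate, Plaur fell by 0.66 ± 0.196 (adjusted p = 0.0172), where Plau was at 0.02. That call was lost with the positive control ratio (-0.67, adjusted p = 0.0668) and with the macrophage covariate (-0.31, adjusted p = 0.106).

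Lair1 was set beside other inhibitory receptors and their phosphatases, of which 14 of 27 listed were measured. On oleate, beside 23.6% of all genes higher and 10.8% lower, 5 of the 14 were higher, 1 lower and 8 did not pass. Their median was 0.03, against 0.05 over all genes. The higher ones were Lilrb4 (0.87 ± 0.217, edgeR adjusted p = 0.00235) and Lilrb3 (0.68 ± 0.174, adjusted p = 0.00296), inhibitory receptors of myeloid cells, with Ptpn6 (0.56 ± 0.149, adjusted p = 0.00358), the B cell receptor Cd22 (0.60 ± 0.181, adjusted p = 0.00935) and Fcgr2b. Pecam1, mainly of endothelium, was the one that fell, by 0.29 ± 0.11 (adjusted p = 0.0381), a call lost with 16 of 33 single libraries left out and with the positive control ratio (adjusted p = 0.0697). With the macrophage covariate, 3 of the 14 were higher and 1 lower, and Cd22, Fcgr2b and Pecam1 no longer passed. The mean of Fcgr2b was higher on oleate only with starch (3360, against 1781 on palmitate). With sucrose, its means were 1674 on oleate and 1762 on palmitate, and its medians 1285 and 1789. Its interaction of carbohydrate and fat (-0.99) passed, as did sucrose minus starch among oleate diets (-1.005). In the interaction, no gene of this list passed once the positive control ratio was in the model. The T cell receptors Pdcd1, Ctla4, Tigit and Btla did not pass. On the custom diets against chow, 6 of 14 were higher and 0 lower, a share near the 39.5% of all genes. The count was 5 higher and 1 lower with TMM scaling, and 2 higher and 0 lower with either covariate. Ptpn6 had the smallest p, at 1.22 ± 0.182 (adjusted p = 1.35e-06), with Lair1 at 1.63. On the Western diet 3 were higher and 1 lower, against 32.8% of all genes higher, and Ptpn6 rose by 1.30 ± 0.22 (adjusted p = 1.58e-05). The ligand side was nearly unmeasured, since the listed collagen genes were not on the panel. Of 10 listed genes of C1q, collectins and their partner proteins, some of which bind LAIR1, 5 could be tested. They were the C1q chain genes C1qa and C1qb, with C1qbp, Masp1 and Masp2, which encode neither C1q chains nor collectins. Of these, 0 passed on oleate against palmitate (C1qa 0.29 ± 0.156, C1qb 0.37 ± 0.174), a comparison in which 169 genes passed in edgeR, 187 with TMM scaling, and 222 had an unadjusted p below 0.05. On the custom diets against chow, 2 of the 5 were higher and 2 lower: C1qa rose by 0.81 ± 0.186 and C1qb by 0.84 ± 0.207, while Masp2 fell by 0.70 ± 0.223 and C1qbp by 0.14 ± 0.056. With the positive control ratio 0 were higher and 1 lower, and with the macrophage covariate 0 passed in either direction. Masp2 fell by 0.38 without chow replicate 1 (adjusted p = 0.149), and C1qbp lost its call without chow replicate 2, 4 or 6. Group means of Masp1 (16.9 to 21.7) and Masp2 (16.2 to 31.9) lay near background.

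Pdgfb had its receptor gene Pdgfrb on the panel and 9 tested genes of related growth factors in all. On oleate 3 of the 9 were higher and 0 lower, beside 23.6% of all genes higher and 10.8% lower. All 3 were of the transforming growth factor beta group: Tgfbr1 at 0.64 ± 0.0908 (edgeR adjusted p = 4.55e-06), Tgfb1 at 0.51 ± 0.112 (adjusted p = 0.000634) and Tgfbr2 at 0.28 ± 0.0888 (adjusted p = 0.0137, and 0.212 with the macrophage covariate). Tgfb2 and Tgfb3, of the same group, did not pass. Their means were lower on oleate than on palmitate with either carbohydrate. Pdgfrb was at 0.07 ± 0.0915 (adjusted p = 0.564), beside 0.48 for its ligand gene. On the custom diets against chow Pdgfrb was at 0.12 ± 0.104 (adjusted p = 0.354). On the Western diet it rose by 0.37 ± 0.135 (adjusted p = 0.0264), a call that ended with TMM scaling (adjusted p = 0.24), with the macrophage covariate (adjusted p = 0.349) and without chow replicate 4 or Western replicate 3, 4 or 7. Without the 6 libraries with epithelial RNA, Pdgfrb was at 0.17 on the custom diets and passed (adjusted p = 0.035). Tgfbr1, the gene nearest to Plau, rose by 1.04 against chow on the custom diets and by 1.04 on the Western diet. Tgfb3 fell by 0.43 and 0.34, and its Western call was lost with 9 of 15 single libraries left out. Of the 9 genes, 3 were higher and 2 lower on the custom diets, and 5 and 1 on the Western diet. Over all genes, 39.5% and 32.8% were higher in these comparisons.

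Matrix proteins and receptors, among which the 3 genes act, did not move as a block. Of 30 listed, 11 were measured. On oleate 4 of the 11 were higher and 2 lower, beside 23.6% of all genes higher and 10.8% lower. Their median was 0.22, against 0.05 over all genes. The integrin chains Itga4 (0.62 ± 0.157) and Itgb1 (0.22 ± 0.0437) and the hyaluronan receptor Cd44 (0.68 ± 0.176) rose, while the integrin chain Itga6 (-0.58 ± 0.102) fell. The other lower gene was Cdh5 (-0.67 ± 0.111), a cadherin that joins endothelial cells to each other and is not a matrix receptor. The matrix proteins themselves, fibronectin (Fn1, 0.09 ± 0.157), Tgfbi (-0.07 ± 0.0739) and Vtn, did not pass.

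**Figure D4:**
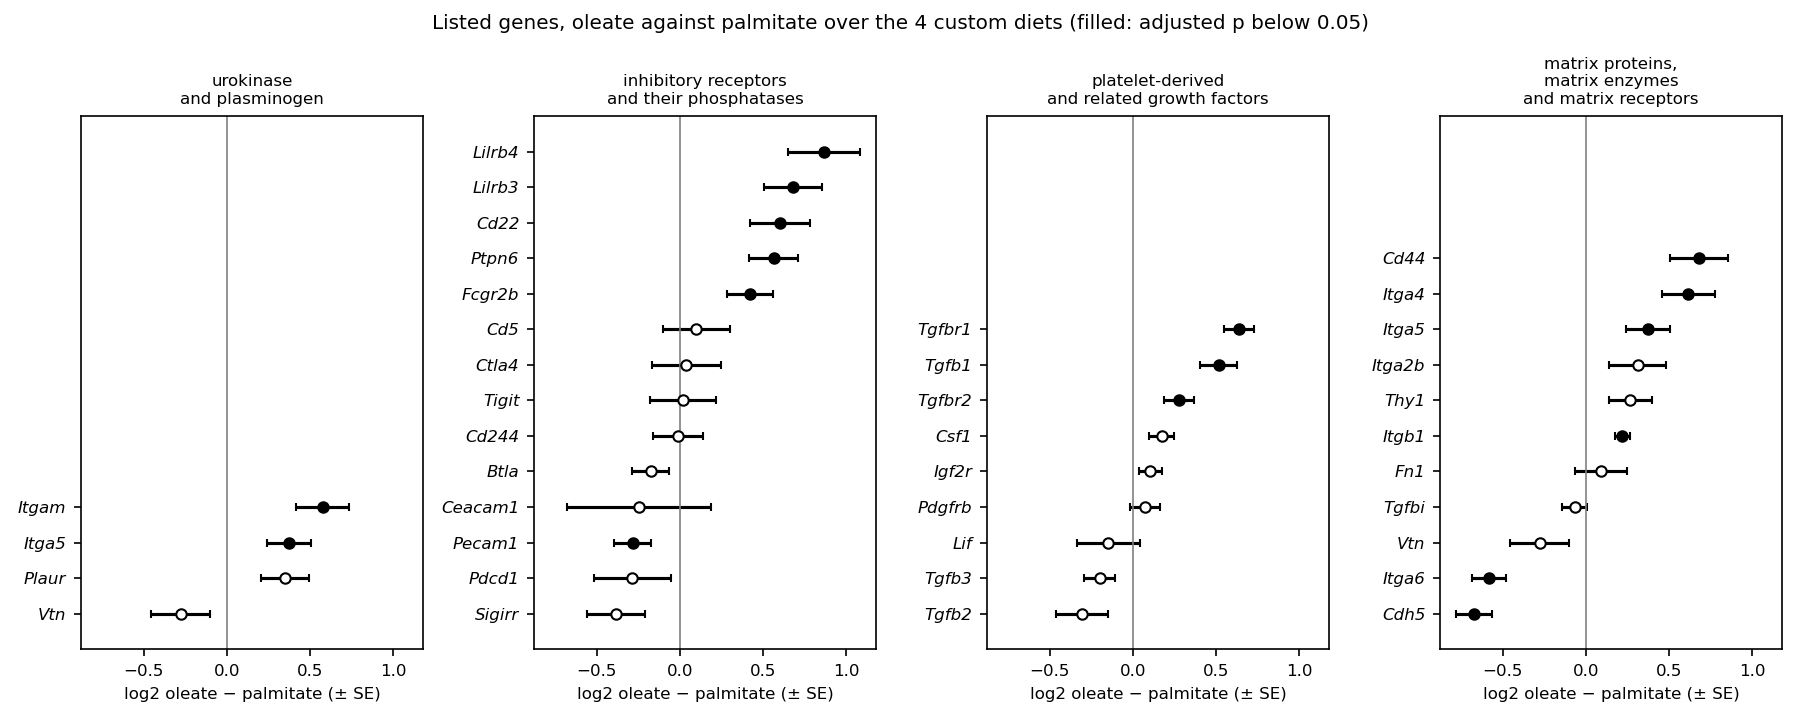
Log2 difference of oleate minus palmitate over the 4 custom diets (horizontal axis, ± SE) for the tested genes of 4 lists around Plau, Lair1 and Pdgfb; filled points had an edgeR adjusted p below 0.05. Filled points lie on both sides of 0 in the inhibitory receptor and matrix lists, and only above 0 in the urokinase and growth factor lists. They run from Cdh5 at -0.67, an endothelial junction gene of the matrix list, to Lilrb4 at 0.87.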

How the data were processed

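RNA was extracted with a Qiagen lipid tissue kit, per the labels' protocols. The authors deposited 1 table of whole-number counts per probe, not scaled between libraries per its values; the counting software is not given in the sources used here. Its lowest value is 1, in 151 of 27600 values. Columns were matched to samples by their labels. Each library was divided by the geometric mean of its 14 reference genes. The 491 of 547 genes whose mean count reached 10 were fitted over all 48 libraries with a mean per diet in edgeR 4.0.16 (glmQLFit, glmQLFTest; R 4.3.3), with two-sided p-values, Benjamini-Hochberg adjustment over all genes tested and a threshold of 0.05. Intervals are 95%. The fit was tested on simulated data. Correlations used log2 of the scaled count plus 1. The labels do not say that each library is a separate mouse, so p-values measure only the spread between these libraries, whose number limits precision. No 2 libraries were copies (lowest chi-square per degree of freedom 5.14).

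The 3 genes, the gene lists and the tests were chosen with earlier results of these data known. Named genes were the 3 members, the 5 most similar genes of each by either measure, and up to 4 genes per list and comparison that passed, by smallest p. Fcgr2b, Pecam1, cell type markers and list genes that did not pass were named after their values were seen. Alternatives were TMM scaling, DESeq2 1.42.0, other filters, subtraction of the negative controls, the replicate block, only the compared groups, 2 covariates (positive control ratio, macrophage level) and each library left out. Leaving out 6 libraries (epithelium score over 3 median absolute deviations above the median) was added after the data were seen. No library was left out of the main values. Upstream sequence is from RefSeq.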

Additional observations from a re-analysis of the deposited data

How the results depend on the processing

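Plau and Lair1 kept their direction and their calls against chow under all 11 alternatives and with each library left out (Plau 0.90 to 0.98 on the custom diets and 0.91 to 1.10 on the Western diet; Lair1 1.49 to 1.77 and 1.66 to 1.96). Pdgfb on the custom diets lost its call with TMM scaling (0.0595), DESeq2 with its own size factors (0.0137), the replicate block (0.23, adjusted p = 0.0617) and the positive control ratio (0.20), and turned to -0.036 with the macrophage covariate. It also lost the call with 20 of 41 libraries left out (0.21 to 0.25): chow 2, 3, 4, 5, 6 and 8, sucrose/palmitate 1, 2, 5 and 6, starch/palmitate 2, 4 and 6, sucrose/oleate 4, 7, 8 and 9, and starch/oleate 3, 7 and 9. On the Western diet it lost the call with DESeq2's size factors (0.25, adjusted p = 0.0637) and the macrophage covariate (0.21).

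Values near 0 turned sign between sucrose and starch. Over both fats these were Plau (0.019) and Lair1 (0.0986) with the macrophage covariate and Pdgfb (-0.0231) without the 6 libraries. With oleate they were Lair1 and Pdgfb with TMM (0.0509 and 0.0646), DESeq2's factors (0.0792 and 0.0918) and the macrophage covariate (0.44 and 0.11), Plau without the 6 libraries (-0.0398) and Plau with single libraries left out (-0.0176 to 0.0594). In the interaction, Lair1 was at -0.14 with the positive control ratio and 0.68 with the macrophage covariate. For the endothelium list, r turned to -0.127 (TMM) and -0.0314 (without 2 libraries) with Plau and to -0.0791 and -0.11 with Pdgfb. With Lair1 it was -0.355 under TMM and passed there (adjusted p = 0.0179 by permutation). Adipocyte values without 2 libraries were -0.516 (Plau) and -0.355 (Pdgfb).

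Counts of genes called moved as follows. For sucrose against starch, 49 became 29 (replicate block), 28 (negative controls subtracted) and 24 to 61 (leave-one-out). With oleate, 74 became 151 (only those groups), 112 (without the 6) and 50 to 96. With palmitate, 10 became 1 (block), 0 (only those groups), 1 (positive control ratio), 0 (without the 6) and 0 to 15 (0 without starch/palmitate 3); edgeR gave 52 at an unadjusted p below 0.05. For the interaction, 27 became 42 (DESeq2's factors), 0 (positive control ratio; 87 in edgeR at an unadjusted p below 0.05 without it), 41 (macrophage) and 19 to 37. For the custom diets, 238 became 123 (positive control ratio) and 147 (macrophage), and for oleate against palmitate 169 became 106 (macrophage), with a TMM split of 95 higher and 92 lower against 116 and 53. Between the scalings the median of all genes moved from 0.25 to 0.08 on the custom diets and from 0.25 to 0.11 on the Western diet. The causes were not tested. Replicate numbers showed no pairing (mean r -0.0156 over 112 same-numbered pairs, 0.00673 over 846 others), and the block changed no other call of the 3 genes.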
